A study of Pardosa pseudoannulata with 16 samples.

Results

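Whole spiders of 2 groups, UH and UL, were compared by RNA sequencing, with n = 4 libraries each, so 8 of the 16 libraries of the series. The species is Pardosa pseudoannulata, a ground-hunting wolf spider of rice fields. All 16 samples, those of the group Ck included, carry the same treatment label naming urea, so no group is untreated by its label. The design describes field-caught adults kept on soil with urea at 0, 200 or 400 mg/kg for 30 days. It does not tie these 3 concentrations to the 4 groups (Ck, UL, UM and UH), so UH and UL are used as names only, with no dose and no order. The sources do not say whether a library is 1 animal or a pool, nor give the animals' sex, so p-values measure the spread between libraries, which may be technical.

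Urea is a nitrogen fertiliser that soil microbes break down to ammonia, and spiders themselves excrete nitrogen mainly as guanine. In a whole-body library, RNA of gut, silk and venom glands, muscle, nerve and gonads is mixed. Fewer cells of a type and less RNA per cell cannot be told apart in such samples. The deposited table lists 136360 sequence clusters, each with a length and a level, but pairs none with a gene name, a sequence or a chromosome position. The labelled tissue therefore could not be checked against marker genes, and clusters are described by level, length and change. No cluster was taken to be a gene: pieces of 1 transcript may stand in different clusters, and similar sequences may divide fragments between them.

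Levels are FPKM, fragments scaled to cluster length (in kilobases) and to library depth (in M, mega, fragments). A cluster was tested if 4 or more of the 8 libraries reached 1 FPKM, which kept 28431 clusters (20.8% of all); 131306 were listed above 0 in at least 1 of the 8. Estimated depth was 18.74 to 19.55 M fragments in UL and 18.47 to 19.54 M in UH. Within UH, log2 levels correlated across clusters by 0.876 to 0.939, within UL by 0.821 to 0.937, and between the groups by 0.663 to 0.834. The first principal component held 52.3% of the variance and placed UH between 68.3 and 89.14 and UL between -111.5 and -63.63. UL replicates 3 and 4 stood apart from the other UL libraries in different measures. UL replicate 4 lay at -111.5 on the first component, the other 3 at -71.01 to -63.63. UL replicate 3 listed 41422 clusters at 1 FPKM or more, against 30824 to 34507 in the other UL libraries, and held 24.53% of its FPKM sum in clusters of up to 500 bases, against 17.35 to 20.38%. Counts are therefore also given without each of them.

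UH and UL differed in many of the tested clusters. As deposited, 8962 of 28431 clusters (31.5%) had an adjusted p under 0.05 in limma with Benjamini-Hochberg adjustment; 2891 (10.2%) were higher in UH and 6071 (21.4%) were lower. The 4 UH values and the 4 UL values did not overlap in 9567 clusters (33.6% of those tested), among them 8068 of the calls. The changes were unlike in size: the median log2 fold change was 1.59 among clusters called higher and -0.72 among those called lower. All log2 fold changes here are on the log2(FPKM + 1) scale, which understates changes of clusters with low levels. The clusters called higher were thus fewer, and their median change was the larger in absolute size.

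The balance of the 2 directions turned with scaling. The median log2 fold change over all tested clusters was -0.30 as deposited, so most clusters lay a little lower in UH. Median ratio scaling divides each library by the median of its ratios to the clusters' geometric means. Its factors were 1.227, 1.124, 0.9575 and 1.262 for UL replicates 1 to 4 and 0.8742, 0.8935, 0.8611 and 0.9471 for UH. UL replicate 3 lay nearer to UH than to the other UL libraries in this factor. After this scaling the median log2 fold change was -0.04, and 6104 clusters were called (21.5%), 4054 higher (14.3%) and 2050 lower (7.21%), with 7815 clusters (27.5%) showing no overlap. Of the clusters called higher as deposited 2887 stayed called higher (99.9%), while of those called lower 2050 stayed (33.8%) and 4021 were no longer called. Another 1167 clusters were called higher after scaling alone, and none changed sides among all 28431. All UH factors were under 1, and of UL only that of replicate 3 was, so scaling moved fold changes toward higher in UH. Calls higher could thus hardly be lost, and calls lower could hardly be gained. The shares that stayed called therefore do not compare how firm the 2 directions are. The median log2 fold changes among the scaled calls were 1.41 for higher and -0.68 for lower. Neither scaling has a measured reference, such as spiked RNA, in the files, so which of them fits these samples was not tested.

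**Figure D1:**
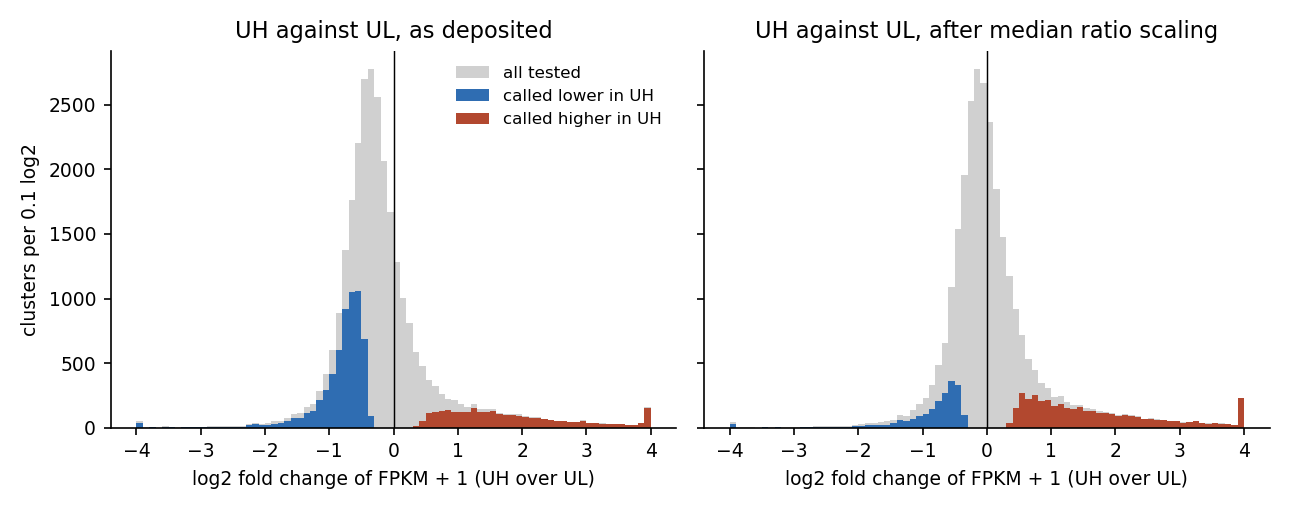
Number of tested clusters (y axis, per 0.1 log2) by log2 fold change of UH over UL on the FPKM + 1 scale (x axis), as deposited (left) and after median ratio scaling (right). Grey bars show all 28431 clusters, blue those called lower and red those called higher in UH; values beyond 4 are drawn in the end bars. The bulk sits below 0 on the left (median -0.30) and near 0 on the right (median -0.04), while the long red tail is present in both.

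The number called lower also changed when single libraries were left out. Each such fit has 1 library fewer, so lost precision and dependence on a library cannot be told apart in these counts. As deposited the median log2 fold change over all tested clusters ran from -0.35 to -0.26 in these fits. As deposited the count of all calls was 5535 without UH replicate 1, and 5989 to 10369 without any other 1 of the 8. The count called lower fell to 3213 when UH replicate 1 was left out, to 3651 when UH replicate 2 was, to 3753 for UL replicate 1 and to 3930 for UL replicate 2. Without UL replicate 3 it was 7749, beside 2620 called higher, and without UL replicate 4 it was 4232, beside 2572 called higher. After scaling the count called lower ran from 1157 without UH replicate 1 to 1811 without UL replicate 3. It was 1320 without UH replicate 2, 1408 without UL replicate 2, 1439 without UH replicate 4 and 1448 without UL replicate 4. Clusters that passed in the full data and again with each of the 8 libraries left out numbered 4922 as deposited (2161 higher and 2761 lower) and 3921 after scaling (2987 higher and 934 lower).

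The clusters with the most extreme differences went from near absence to high levels. Of the 866 clusters called higher that met the rule for naming (called the same way with no overlap under both scalings, mean of at least 10 FPKM, at least 1000 bases), Cluster-9253.47406 had the largest fold change on the log2(FPKM + 1) scale. This cluster of 5611 bases had 0.35, 2.31, 1.17 and 0.37 FPKM in UL replicates 1 to 4 and 5908.06, 6795.3, 7914.64 and 1459.06 FPKM in UH. Every UH library lay far above every UL library, and UH replicate 4 was the lowest of the UH libraries. Its log2 fold change was 11.25 ± 0.55 (SE; limma adjusted p = 1.55e-05), and 11.47 ± 0.58 after scaling (adjusted p = 8.27e-06). The other groups lay in between, with 458.47, 63.96, 11.98 and 275.88 FPKM for Ck replicates 1 to 4, while the UM libraries had 1070.92, 223.56, 106.74 and 727.19 FPKM.

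Cluster-9253.84883 (1498 bases) was the next whose deviations from the group means did not follow those of the first (r = 0.0236). It was listed at 0 in UL replicates 2, 3 and 4 and at 0.13 FPKM in UL replicate 1, and had 1654.27, 3198.14, 99.96 and 501.04 FPKM in UH. The UH libraries spread widely among themselves, yet none came near UL (log2 fold change 9.45 ± 0.93, limma adjusted p = 0.000199). It passed the filter on low values through UH alone, so it had to differ, and its p-value is not read as support. In Ck it stayed at or below 0.26 FPKM, while UM replicate 4 alone of the UM libraries had 1159.7 FPKM, the other 3 having 8.62 to 29.48. With limma voom on estimated fragments its adjusted p was 0.0162, the highest over the 18 alternatives, and its log2 fold change (14.32) exceeded that of Cluster-9253.47406 (12.52), so their order depends on the scale.

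In the other direction 342 clusters met the same rule. Cluster-9253.48286 (1341 bases) had 501.76, 280.23, 438.6 and 989.31 FPKM in UL and 0.91, 2.55, 1.34 and 2.56 FPKM in UH. All 4 UH libraries were near the floor, with no library in between (log2 fold change -7.51 ± 0.38, limma adjusted p = 1.55e-05; -7.22 ± 0.36 after scaling). In Ck and UM it was high in every library, at 350.46 to 764.8 and 308.71 to 672.39 FPKM, so that low levels were seen in UH alone of the 4 groups.

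Cluster-9253.46820 (1367 bases) had the second largest fall on the log2(FPKM + 1) scale, with deviations that followed the first by r = 0.476. It had 38.04, 97.45, 342.44 and 526.33 FPKM in UL and 0.1, 0.24, 0.09 and 0.14 FPKM in the UH libraries (log2 fold change -7.15 ± 0.73, limma adjusted p = 0.00024). It passed the filter through UL alone, so it had to differ, and its p-value is not read as support. Its ratio of group means, 1761.9, was larger than the 300.3 of Cluster-9253.48286, so this order too depends on the scale. The UL libraries differ among themselves here more than for Cluster-9253.48286, and Ck and UM lay at 76.42 FPKM and above in every library.

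**Figure D2:**
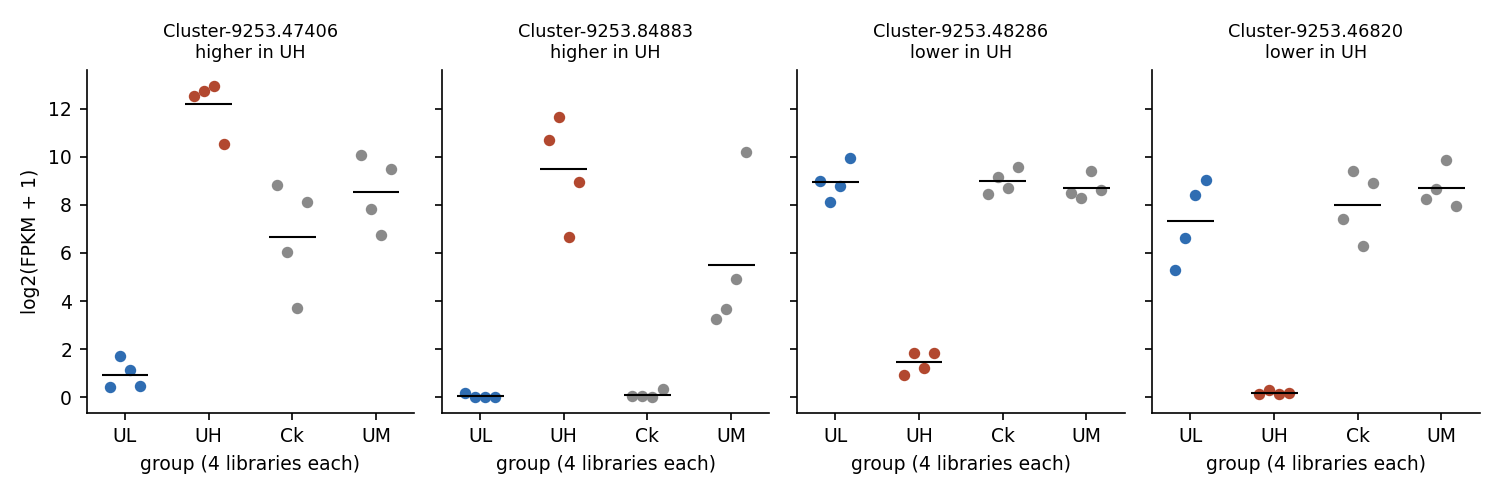
Level of the 4 named clusters in each library, as log2(FPKM + 1) (y axis), by group (x axis, 4 libraries each); black lines are group means. UH and UL do not overlap in any of the 4 panels, which the rule for naming required. Ck and UM lie with UL in the 2 panels of clusters lower in UH, and Ck lies with UL for Cluster-9253.84883.

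The direction depended on size, and most calls were under 1 log2 as deposited but not after scaling. As deposited, 15930 clusters (56.0%) changed by under 0.5 log2 in either direction and 837 of them were called, 60 higher and 777 lower. Between 0.5 and 1 log2 there were 626 calls higher and 4048 lower. From 1 to 2 log2 the directions were near balance, with 1166 higher and 1050 lower, and from 2 to 4 log2 911 were higher and 162 lower. At 4 log2 or more 128 were higher and 34 lower. Changes of at least 1 log2 thus held 2205 calls higher and 1246 lower (36.1% lower), against 67.7% lower among all calls. After scaling the same size class held 2694 higher and 529 lower (16.4% lower), so the majority at this size was higher in UH under both scalings. It then held 3223 of the 6104 calls. Between 0.5 and 1 log2 the scaled calls were near balance, with 1173 higher and 1092 lower. From 1 to 2 log2 1406 scaled calls were higher and 407 lower.

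A large mean difference did not always pass. Of 1380 clusters that differed by at least 2 log2 as deposited, 145 were not called. The group spread was somewhat wider in UL, with a median SD per cluster of 0.298 log2 against 0.247 in UH. Conversely, 1499 clusters without overlap were not called.

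Highly expressed clusters were more often higher in UH. The share called higher was 5.74% of the 11853 clusters with a mean under 3 FPKM over the 8 libraries, 9.42% at 3 to 10, 16.1% at 10 to 30, 25.6% at 30 to 100 and 26.2% of the 687 clusters at 100 to 1000 FPKM, beside 10.2% of all. Among the 89 clusters of 1000 FPKM or more it was 20.2%. After scaling the shares in the same order were 8.04, 14.4, 22.3, 31.9, 31.3 and 21.3%, beside 14.3% of all. The share called higher therefore stood above the background from 10 FPKM upward and below it under 3 FPKM, as deposited and after scaling.

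The size of the rise, in the clusters called higher, differed between the level classes. The median log2 fold change of the clusters called higher was 1.27 under 3 FPKM, 1.93 at 10 to 30 and 3.37 at 100 to 1000 FPKM. The + 1 of the log scale presses down changes of low clusters, which bears on this order and was not tested. The UH levels also enter the mean that sets the class. With classes set instead by the mean of the 8 Ck and UM libraries, chosen after seeing the data, these medians were 1.30, 1.83 and 3.38. The shares called higher were then 6.15, 8.63, 15.7, 26.9, 27.9 and 28.1% from the lowest to the highest class, beside 10.2% of all. Among the clusters called lower the medians ran from -0.68 to -0.92 over the 6 classes set by the UH and UL libraries. With the classes set by Ck and UM they ran from -0.69 to -1.06.

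The share called lower was small at the highest levels as deposited, but its order over the classes depended on scaling. As deposited 16.9% of clusters under 3 FPKM were called lower, 25.7% at 3 to 10, 25.7% at 10 to 30, 21.3% at 30 to 100, 10.0% at 100 to 1000 and 2.25% (2 clusters) at 1000 FPKM or more, beside 21.4% of all. After scaling the shares were 6.13, 8.69, 7.76, 6.41, 3.49 and 0.0%, beside 7.21%. After quantile normalization they were 7.50, 15.2, 21.8, 26.8, 18.2 and 5.62%, so the class under 3 FPKM then lay below the class of 100 to 1000 FPKM, whose median log2 fold change went from 0.02 to -0.33. With 1 library left out, the share under 3 FPKM as deposited ran from 8.30% without UH replicate 1 to 24.1% without UL replicate 3. Leaving out UL replicate 1, 2 or 4 gave 9.65, 10.2 and 9.99%, and leaving out UH replicate 2 or 3 gave 9.22 and 11.1%. At 100 to 1000 FPKM the range was 5.39%, without UH replicate 1, to 11.2%, without UL replicate 4; without UL replicate 2 it was 5.82% and without UH replicate 2 5.68%. Estimated fragments rose with level, but the standard error on the log2(FPKM + 1) scale was not smaller at the highest levels. The median fragments per cluster and library were 28.3 under 3 FPKM and 4125.5 at 100 to 1000 FPKM. The median standard error was 0.207 log2 under 3 FPKM, 0.264 at 100 to 1000 FPKM and 0.404 at 1000 FPKM or more. The + 1 presses down the spread of low clusters too, so these values do not compare precision between levels. The part of depth in the class shares was not tested.

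**Figure D3:**
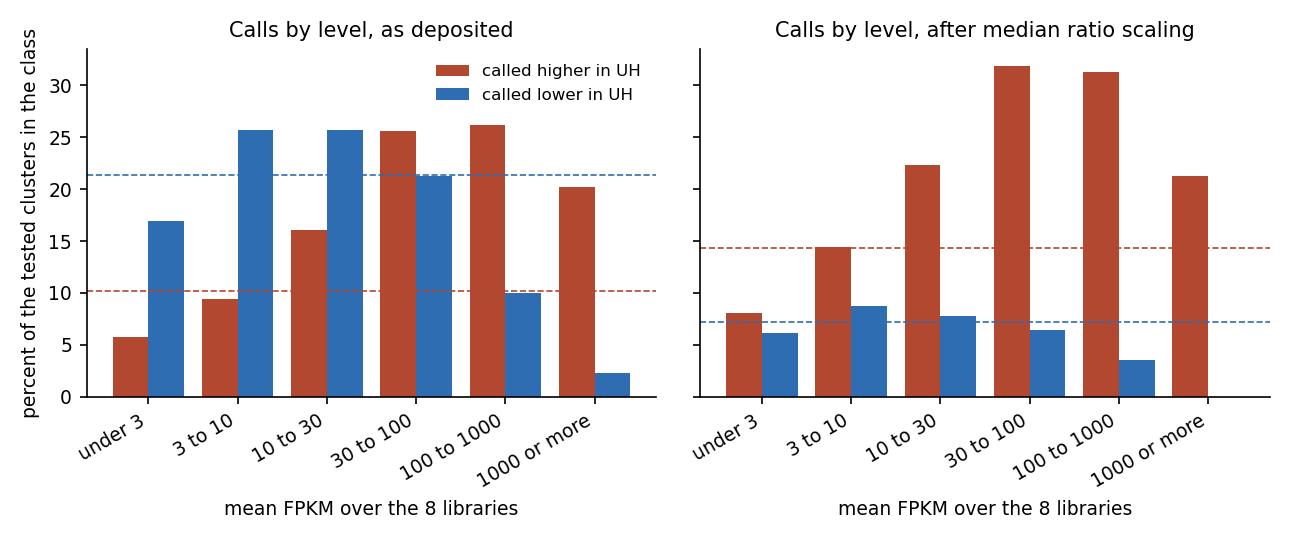
Percent of tested clusters called higher (red) and lower (blue) in UH (y axis) in classes of mean FPKM over the 8 libraries (x axis), as deposited (left) and after median ratio scaling (right); dashed lines are the shares over all tested clusters. The red bars reach 26.2% at 100 to 1000 FPKM on the left and 31.9% at 30 to 100 FPKM on the right, while the blue bars are lowest in the 2 highest classes, which did not hold after quantile normalization.

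Clusters over 4000 bases were called lower more often than those of any shorter class. As deposited the share called lower was 9.19% of clusters of up to 500 bases, 17.0% over 500 to 1000, 20.1% over 1000 to 2000, 25.1% over 2000 to 4000 and 38.4% of the 3923 clusters over 4000 bases, beside 21.4% of all. After scaling it was 3.56, 5.61, 6.69, 8.02 and 13.6%, beside 7.21%. The longest class kept the largest share as deposited with any 1 library left out, between 20.6% without UH replicate 1 and 44.6% without UL replicate 3, and after quantile normalization (25.3%). It was 23.6% without UH replicate 2 and 25.2% without UL replicate 2. The share called higher varied less with length, from 6.58% in the shortest class to 12.0% in both classes between 1000 and 4000 bases and 8.26% over 4000 bases, beside 10.2% of all. After scaling it was 8.57, 13.1, 17.1, 17.3 and 12.5%, beside 14.3%, so clusters over 4000 bases had slightly more calls lower (532) than higher (491) while every shorter class had more calls higher. Without UL replicate 3 this turned, with 11.6% of the longest class called higher and 11.1% lower after scaling.

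The median over all clusters of a class, called or not, was also lowest in the longest class. It was -0.26, -0.28, -0.27, -0.29 and -0.39 log2 from the shortest to the longest class as deposited, and -0.03, -0.04, -0.01, -0.03 and -0.12 after scaling. Within the longest class the median as deposited was -0.39 among clusters under 10 FPKM and -0.38 among those of 10 FPKM or more. In the next class, over 2000 to 4000 bases, it was -0.31 and -0.21, and up to 500 bases it was -0.26 and -0.32. The longest class was thus the lowest at both levels, but at 10 FPKM or more the shortest class lay close to it.

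Precision moved strongly with length. The median standard error was 0.369 log2 in the shortest class and 0.159 over 4000 bases, and the median estimated fragments per library were 5.63 and 512.3. The estimated length lost to each fragment, close to a mean fragment length, was 258.8 to 292.6 bases in UL and 266.3 to 291.6 in UH (exact permutation p = 0.657), so the groups overlapped in it. The part of precision in the class shares was not tested.

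**Figure D4:**
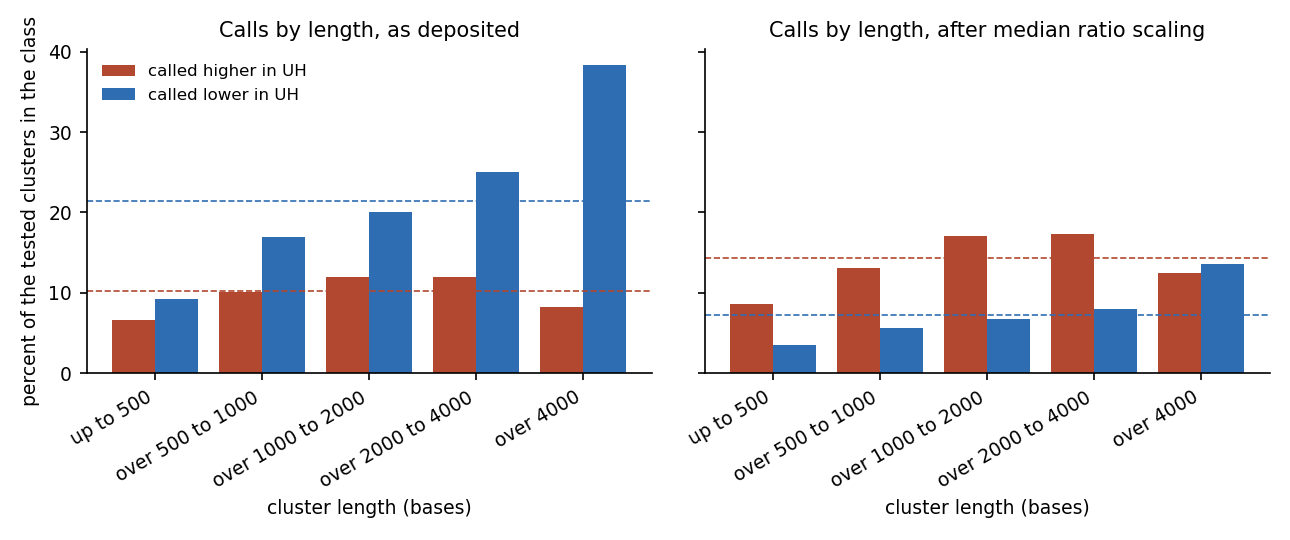
Percent of tested clusters called higher (red) and lower (blue) in UH (y axis) in classes of cluster length in bases (x axis), as deposited (left) and after median ratio scaling (right); dashed lines are the shares over all tested clusters. The blue bars grow with length in both panels, to 38.4% and 13.6% over 4000 bases.

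Abundant examples in each length class show both patterns in single libraries. They were picked after the values were seen, as the called cluster of highest mean with a change of at least 1 log2 and a call under both scalings, and are given without a name. Among those higher in UH, a cluster of 780 bases had 610.04, 700.9, 420.52 and 511.21 FPKM in UL and 11331.92, 8556.48, 8039.02 and 9963.22 FPKM in the UH libraries (log2 fold change 4.09 ± 0.24, limma adjusted p = 2.16e-05). A cluster of 3009 bases had 83.27 to 228.38 FPKM in UL and 1919.29 to 3107.74 FPKM in UH. Values spread less within UH and within UL than within Ck in these clusters. Picking called clusters favours a small spread within UH and UL but not within Ck, so this contrast is not read as a result. Ck replicates 1 to 4 had 8802.79, 320.67, 2217.52 and 2080.65 FPKM of the first and 6389.52, 136.37, 2266.7 and 1761.86 FPKM of the second, so that Ck replicate 1 lay within or above the UH range and Ck replicate 2 below or within UL.

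Among the examples lower in UH, changes were smaller and levels in UH remained high. A cluster of 1544 bases had 1374.13, 1556.08, 1157.27 and 1407.62 FPKM in UL, against 426.53, 428.51, 579.95 and 436.63 FPKM in the UH libraries (log2 fold change -1.56 ± 0.19, limma adjusted p = 0.000604; -1.21 after scaling). A cluster of 4236 bases had 68.45 to 182.54 FPKM in UL and 42.27 to 61.53 FPKM in the UH libraries (log2 fold change -1.17 ± 0.28, limma adjusted p = 0.0175; -0.83 after scaling). The exception was a cluster of 339 bases, with 37.81, 153.44, 699.63 and 887.15 FPKM in UL and listed at 0 in all 4 UH libraries.

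Few clusters were listed at 0 throughout a group. All 4 UL libraries were at 0 in 36 tested clusters and all 4 UH libraries in 15, with median lengths of 377 and 338 bases. Most were low in the group that had them, with median means of 2.96 and 8.55 FPKM, and every one of them passed the filter through that group alone, so their difference follows from the filter. The most abundant of those at 0 in UL, 339 bases long, had 297.87, 1052.83, 132.59 and 1775.26 FPKM in UH. In Ck it had 597.31, 0, 952.6 and 0.63 FPKM, so that presence and absence also divided the libraries inside Ck. Of the 36, 5 were at 0 in all Ck libraries and 2 in all UM libraries.

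A wider class passed the filter through 1 group only. In 523 clusters all 4 UH libraries and no UL library had at least 1 FPKM, and in 569 the reverse held. These had to differ by the way they passed, and their calls are not read as support. Clusters of at least 1 FPKM in all 8 libraries numbered 18973, of which 9.12% were called higher and 24.2% lower, beside 10.2 and 21.4% of all tested.

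At the very top of the level scale no difference passed. None of the 10 most abundant clusters was called by limma under either scaling (lowest adjusted p 0.0872 as deposited), and of the 100 most abundant 21 were called higher and 2 lower, beside 10.2 and 21.4% of all tested. Cluster-9253.47764 (703 bases), the most abundant of all, had 137624.41, 54378.96, 55258.63 and 44216.72 FPKM in UL and 94188.19, 67137.35, 59574.0 and 71197.48 FPKM in UH. The groups overlapped, and UL replicate 1 alone exceeded all UH libraries (log2 fold change 0.14 ± 0.45, limma adjusted p = 0.83). The clusters at ranks 3 and 7 by level, of 1482 and 883 bases, varied inside UH more than between groups. The first of them had 9920.09, 27193.49, 1282.25 and 15.08 FPKM in UH replicates 1 to 4 against 13023.49 to 24070.78 in UL, and the second followed the same order with 4292.58, 12157.0, 515.43 and 7.36 FPKM.

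Measured per library, no difference passed adjustment, which 4 against 4 libraries made hard to pass. Each of 20 measures was compared by a two-sided exact permutation test over 4 against 4 libraries, whose smallest possible p is 0.0286. Counts, sums and shares here were taken over all 136360 clusters, tested or not, so these classes are wider than those of tested clusters above. Clusters of at least 1 FPKM numbered 29380, 29481, 28643 and 30500 in UH and 34507, 30824, 41422 and 33615 in UL, with no overlap (exact p = 0.0286, adjusted over the 20 measures 0.19). The share of the FPKM sum in clusters with a mean under 3 FPKM was 5.477% ± 0.221 in UH and 8.014% ± 1.98 in UL (SD, n = 4; exact p = 0.0286, adjusted 0.19). At 3 to 10 FPKM it was 6.552% ± 0.427 and 8.432% ± 1.07, with the same p-values. The groups did not overlap in these 3 measures, and none of them passed the adjustment. With only 3 of 20 measures at the smallest possible p, the adjusted value could not be under 0.19. Not passing therefore does not show that the groups were alike in them. Without UL replicate 3 the difference in clusters of at least 1 FPKM was -3481.0 instead of -5591.0, and that in the share under 3 FPKM was -1.60 instead of -2.54 percentage points.

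Other measures overlapped between the groups. Clusters at 100 to 1000 FPKM held 28.71% ± 2.31 of the sum in UH and 23.49% ± 3.62 in UL (exact p = 0.0857, adjusted 0.343). The FPKM sum, the estimated depth and the share of the most abundant cluster had means in UH of 1.01, 1.00 and 1.02 times those in UL (exact p = 0.914, 0.857 and 0.943). Shares by length class differed by at most 1.70 percentage points in the mean (lowest exact p 0.429). Clusters over 4000 bases, tested or not, held 8.068% ± 1.19 of the sum in UH and 8.249% ± 1.45 in UL. Among the tested clusters, calls lower were most frequent at this length.

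The 8 libraries of Ck and UM took no part in choosing the calls, and their levels of the called clusters are therefore separate measurements. The mean log2(FPKM + 1) over the 2891 clusters called higher was 2.03 to 2.37 in UL and 3.83 to 4.27 in UH, a distance that the choice fixes. It was 3.67, 2.1, 3.18 and 3.13 in Ck replicates 1 to 4, and 3.69, 3.28, 3.99 and 3.34 in UM. Ck replicate 2 lay within the UL range, while UM replicate 3 lay within the UH range. Over the 6071 clusters called lower, the mean was 2.49, 2.92, 2.65 and 2.88 in Ck and 2.61 to 2.8 in UM, between UH (2.15 to 2.23) and the highest UL library (3.23). The Ck libraries thus spread over a large part of the distance between UL and UH.

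UM compared with Ck showed more of the same direction in the clusters called higher than in the rest. Of these 2891 clusters 89.0% had a higher mean in UM than in Ck, with a median difference of 0.47 log2, beside 59.6% and 0.06 over all 28431 tested. In the larger set of 4054 clusters called higher after scaling, it was 82.4% and 0.29 on scaled values. Over all tested clusters it was then 52.1% and 0.01. The median as deposited was 0.14 without Ck replicate 2 and 0.31 without UM replicate 3, so it rested in large part on single libraries. Of the 6071 clusters called lower 46.4% were higher in UM, with a median difference of -0.02, which was 0.02 without Ck replicate 2 or without Ck replicate 4. After scaling 36.2% of the 2050 clusters called lower were higher in UM, with a median difference of -0.09. Across the 28431 clusters the UH minus UL and UM minus Ck differences, which share no library, had r = 0.38 as deposited and 0.38 after scaling; clusters of a library share its depth and handling and are not independent.

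**Figure D5:**
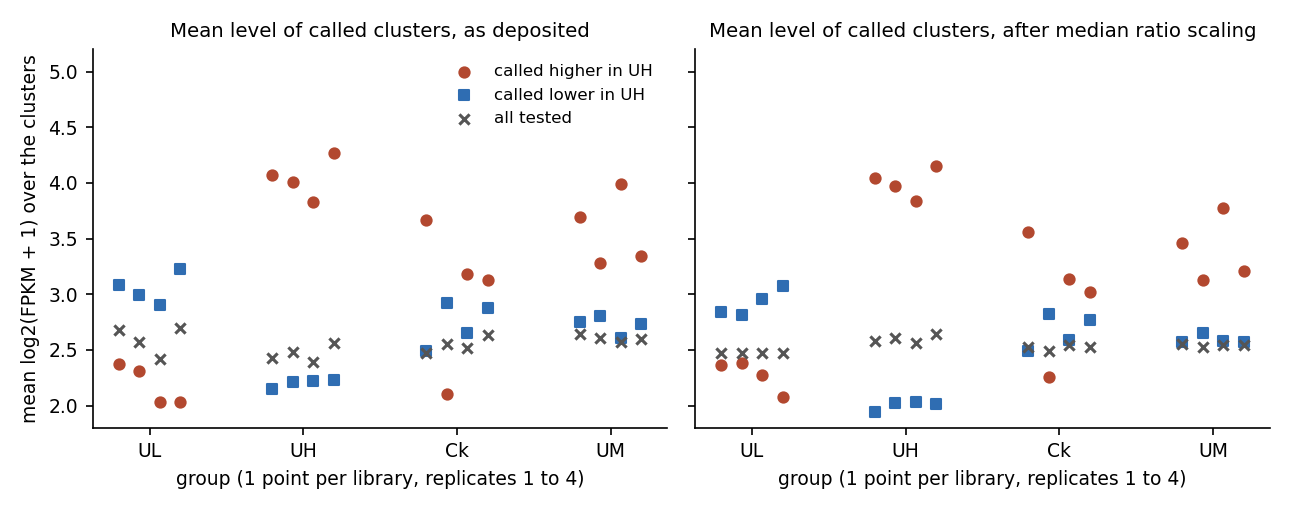
Mean log2(FPKM + 1) (y axis) in each library, by group (x axis, replicates 1 to 4 from left to right), over the clusters called higher in UH (red circles), called lower (blue squares) and all tested (crosses), as deposited (left) and after median ratio scaling of the 16 libraries (right). The distance between UL and UH follows from the choice of clusters; Ck replicate 2 lies at the UL level of the red set (2.1) and Ck replicate 1 near UH (3.67).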

How the data were processed

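Poly-A RNA of whole spiders was fragmented, copied with random primers and sequenced, per the labels' protocols. The authors deposited FPKM rounded to 2 decimals, and the length of each cluster, per the file headers and the values. No source used here gives the assembler, aligner or counter; the genome build in the submitters' processing notes is a mouse one and was not used. Groups and replicate numbers came from the labels.

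Depth was estimated here from the FPKM steps: among clusters of 1 length, low values step by what 1 fragment is worth. A line of the inverse step against length (400 to 1000 bases) gave the depth. Over clusters no longer than 900 bases, among values of at most 10 fragments, 97.92 to 98.48% were whole within 0.1 fragment in the UH and UL libraries. On a cluster of 500 bases 1 fragment is worth 0.214 to 0.257 FPKM. Intervals of counting error are not given, since these fragments are estimates.

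The 8 UH and UL libraries alone were fitted in limma 3.58.1 (R 4.3.3) on log2(FPKM + 1) with a mean-variance trend. Tests were two-sided with Benjamini-Hochberg adjustment at 0.05 over all 28431 tested clusters. The fit and the reading of depth were tested on simulated data. Median ratio factors came from tested clusters above 0 in all 8 libraries (26104). Exact permutation tests used scipy 1.17.1. Alternatives covered scaling, pseudocount, filters, length, the libraries fitted, array weights, a replicate block, voom and leaving out each library.

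The comparison, its classes and the rule for named clusters were chosen with earlier results of these data known. Named were at most 2 clusters in each direction with the largest change (the second with a residual correlation under 0.5 to the first), and the most abundant cluster.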

Additional observations from a re-analysis of the deposited data

Results flagged for a closer look

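A single library lay far from the other 3 of its group in 5 of 50 groups of values checked. Chance flags about 1 in 20 among independent, normally spread values. Many of the 50 groups share values, such as shares of the same sum, so no excess over chance is read from this count. In UH, replicate 3 had the lowest FPKM sum (719263.0), replicate 1 the highest share in the most abundant cluster (11.83%) and replicate 1 the lowest estimated depth (18.47 M fragments). In UL, replicate 1 had 137624.41 FPKM of Cluster-9253.47764 and 0.13 FPKM of Cluster-9253.84883, the other 3 UL libraries being at 0 for the latter. Beside 3 values of 0 any value above 0 is flagged.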

How the results depend on the processing

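Cluster-9253.47406 and Cluster-9253.48286 kept their direction and an adjusted p under 0.05 in all 18 alternatives (highest limma adjusted p 0.00121). Both were named for the largest change among clusters already called in these libraries. Passing again is therefore not separate support, and neither are their p-values above. As deposited, 8962 clusters were called, 6071 of them lower (67.7%), with a median log2 fold change of -0.30. The count lower, its share and the median were 2050, 33.6% and -0.04 with median ratio scaling and 3868, 52.4% and -0.14 with quantile normalization. With no filter on low values (131306 clusters tested) 4499 were called, 2058 lower (45.7%), median -0.12. With a mean of at least 5 FPKM, which left 11872 clusters, 4937 were called, 1903 higher and 3034 lower. The median was -0.39 with a pseudocount of 0.1 and -0.42 with voom on estimated fragments (10058 called). With 1 library left out, calls ran from 5535 to 10369, lower calls from 3213 to 7749 and the median from -0.35 to -0.26.

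After median ratio scaling, lower calls (2050) ran from 1157 to 1811 with 1 library left out and the median from -0.04 to -0.03. The median was -0.06 with a pseudocount of 0.1. With factors from clusters of at least 10 FPKM, 4129 were lower (54.6%), median -0.18, so the majority turned with the clusters behind the factors.

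With the replicate number as a block, 6854 clusters were called as deposited, and 1169 lower after scaling. Same-numbered libraries deviated together by r of -0.196 to 0.249 across clusters, so the numbers were not taken to pair samples.

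The UM minus Ck median in clusters called lower (-0.02) ran from -0.08 to 0.02 with 1 library left out, and turned positive without Ck replicate 2 or 4. Short clusters rest on few fragments (median 5.63 per library up to 500 bases), which limits what could pass there. The class values without UL replicate 3 and the level classes by Ck and UM were chosen after seeing the data.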
